A study of Rattus norvegicus with 28 samples.

Results

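The genes described here are CD-numbered cell surface antigens, measured by RNA-Seq in rat tibialis anterior muscle. Their symbols consist of Cd, a number and at most 1 further letter, and they were found in a list of 1998 genes that the study published with small p-values for VDR construct legs against empty vector legs. The list holds 17 such genes, and 15 remained after leaving out Cd14 and Cd163, among 32883 genes counted in all. The members were thus selected by the contrast of construct and empty vector legs, and their values in it are given as a description without a test. CD-numbered genes that are not on the list were not analysed here, because the deposited files carry Ensembl identifiers and only the list pairs them with symbols.

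The 28 muscles came from 14 male Wistar rats, aged 8 weeks before 1 week of acclimatisation. Every muscle had been injected and electroporated (in vivo electrotransfer), which drives the injected material into muscle fibres. In 7 rats (416 to 422) the right leg received a construct for the mouse vitamin D receptor (VDR) and the left leg the empty vector. In the other 7 (423 to 429) the right leg is labelled as given VDR shRNA and the left leg a scrambled shRNA. The labels and the study's methods name different backbones for the construct (pCAGGS and pCMV6). For the construct rats the methods state collection at 10 days after an overnight fast, and all rats received the analgesic carprofen. No separate time for the shRNA rats is given in the sources used here. Total counts per leg ranged from 36684220 to 46312167 over the 4 groups of 7 legs.

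CD numbers are given to surface proteins that antibodies recognise on leukocytes, and several mark one lineage of blood cells. Healthy muscle holds resident macrophages, few lymphocytes, fibro-adipogenic stromal cells and many capillaries, and injury or injection brings in leukocytes from the blood. T cells carry the CD3 complex with CD4 or CD8, B cells carry CD22, and cells that present antigen to T cells use CD74 to load MHC class II molecules. In RNA from whole muscle, fewer cells of a type and less RNA per cell cannot be told apart. By the role each gene is known for, 4 members belong to T cells (Cd3d, Cd8b, Cd2 and Cd4), 1 to B cells (Cd22), 1 to antigen presentation (Cd74), 1 to activated lymphocytes and other cells (Cd38), 1 to leukocytes in general (Cd48) and 5 to myeloid cells (Cd33, Cd84, Cd101, Cd209f and Cd302). The remaining 2, Cd200 and Cd9, are found on endothelial, stromal and nerve cells among others. No member marks endothelium alone. Cd84, grouped here as myeloid, is also found on other leukocytes.

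Promoters of 12 of the 15 members matched a RefSeq table of the GRCr8 assembly, which is not the build of the counts and gives 300 bases per gene, 250 before and 50 after the start. Cd8b, Cd4 and Cd302 had no entry. The promoters of Cd3d, Cd2 and Cd9 are printed as examples. Cd3d and Cd2 are T cell genes with ranges of 27.9-fold and 9.73-fold over the legs. Cd9, at 2.04-fold, had the narrowest range among members with counts in every leg. Capitals mark AGGAAG (a core of ETS factor sites), TGTGGT (a core of RUNX sites) and GGGCGG (a GC box, bound by Sp factors), each searched on both strands. The Cd3d promoter at chr8:54185269-54185568 on the plus strand holds 1 AGGAAG match, on the opposite strand. The Cd2 promoter at chr2:191412610-191412909 on the minus strand holds 2 TGTGGT matches, 1 on each strand. The Cd9 promoter at chr4:159975309-159975608 on the minus strand holds 1 AGGAAG and 3 GGGCGG matches.
Cd3d: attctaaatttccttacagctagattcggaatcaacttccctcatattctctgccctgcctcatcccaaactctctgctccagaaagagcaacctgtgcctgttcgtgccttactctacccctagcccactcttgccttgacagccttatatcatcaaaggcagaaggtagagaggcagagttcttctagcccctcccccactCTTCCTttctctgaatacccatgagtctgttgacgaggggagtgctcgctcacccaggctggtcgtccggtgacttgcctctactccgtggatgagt
Cd2: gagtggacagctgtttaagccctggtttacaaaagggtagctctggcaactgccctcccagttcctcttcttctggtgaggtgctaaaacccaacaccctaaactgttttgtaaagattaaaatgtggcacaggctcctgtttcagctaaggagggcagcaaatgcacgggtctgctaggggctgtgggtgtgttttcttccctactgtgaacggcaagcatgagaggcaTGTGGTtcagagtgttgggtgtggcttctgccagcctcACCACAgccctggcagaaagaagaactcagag
Cd9: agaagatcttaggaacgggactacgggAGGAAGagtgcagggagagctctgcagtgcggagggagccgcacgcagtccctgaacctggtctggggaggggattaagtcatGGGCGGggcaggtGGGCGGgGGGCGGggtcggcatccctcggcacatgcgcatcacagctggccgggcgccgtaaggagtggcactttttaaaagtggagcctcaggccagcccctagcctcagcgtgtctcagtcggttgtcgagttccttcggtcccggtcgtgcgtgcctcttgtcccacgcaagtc
AGGAAG was present in 34.5% of all 33469 promoters of the table and in those of 6 members (Cd101, Cd22, Cd38, Cd3d, Cd48 and Cd9), TGTGGT in 17.3% and in 2 (Cd101 and Cd2), and GGGCGG in 33.1% and in 2 (Cd74 and Cd9). Direct repeats with a gap of 3 bases, of the kind that VDR binds with its partner receptor, built from AGGTCA or from GGTTCA, were present in 0.0239% and 0.0209% of all promoters and in none of the 13 entries of the members, where Cd33 has a pair. These matches describe the letters in the window only, and the cores do not overlap the repeats searched.

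Vdr, the targeted gene, was examined first, as normalised CPM (counts scaled to the library's total). In empty vector legs Vdr was at 1.9 CPM in the lowest leg, 3.93 in the median and 6.73 in the highest. In construct legs the lowest, median and highest values were 5.45, 2300 and 5940 CPM. The library labelled as the construct leg of rat 419 was at 5.45 CPM against 5.74 in its empty vector leg, so that 6 of 7 construct legs lay above every empty vector leg and rat 419 did not. Scramble legs held 1.39 to 8.11 CPM (median 3.41) and legs labelled VDR shRNA 1.94 to 6.53 CPM (median 2.59), and the ranges overlapped. The fitted log2 fold change of Vdr in legs labelled VDR shRNA was -0.26 (SE 0.4, 95% interval -1.17 to 0.66, adjusted p = 0.839, edgeR quasi-likelihood test). Vdr was lower in the shRNA leg of 4 rats and higher in that of rats 423, 426 and 427. The shRNA comparison below therefore compares legs by label, without a measured loss of Vdr mRNA.

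Legs labelled VDR shRNA and scramble legs share no sample with the contrast that selected the members, and this comparison was tested. None of the 15 members passed an adjusted p of 0.05, where 0% of the 14652 genes tested passed (edgeR quasi-likelihood test with the rat as a block). At an unadjusted p under 0.05 the count was 0 of 15 members and 395 genes (2.7%), of which 102 were higher in shRNA legs (0.696%, with 0 members). There were 401 genes (2.74%) by the edgeR likelihood ratio test and 625 (4.27%) by DESeq2, with 0 members by both. The adjusted p of the members lay between 0.803 and 0.807, and their unadjusted p between 0.0782 for Cd200 and 0.4 for Cd209f. The fitted log2 fold changes were above 0 for all 15 members, from 0.12 for Cd9 to 0.97 for Cd8b. Their median was 0.58, against 0.01 over all genes tested, of which 51.6% were above 0. The median was 0.09 over the other 1872 tested genes of the published list, of which 65.3% were above 0. Those genes were not split by their direction in the selecting contrast, where the mean log2 ratio was above 0 for all 15 members. The sets are therefore not matched. Every 95% interval covered 0, and 11 of the 15 also covered a doubling (a log2 change of 1), so that an increase of that size was not excluded for these.

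**Figure D1:**
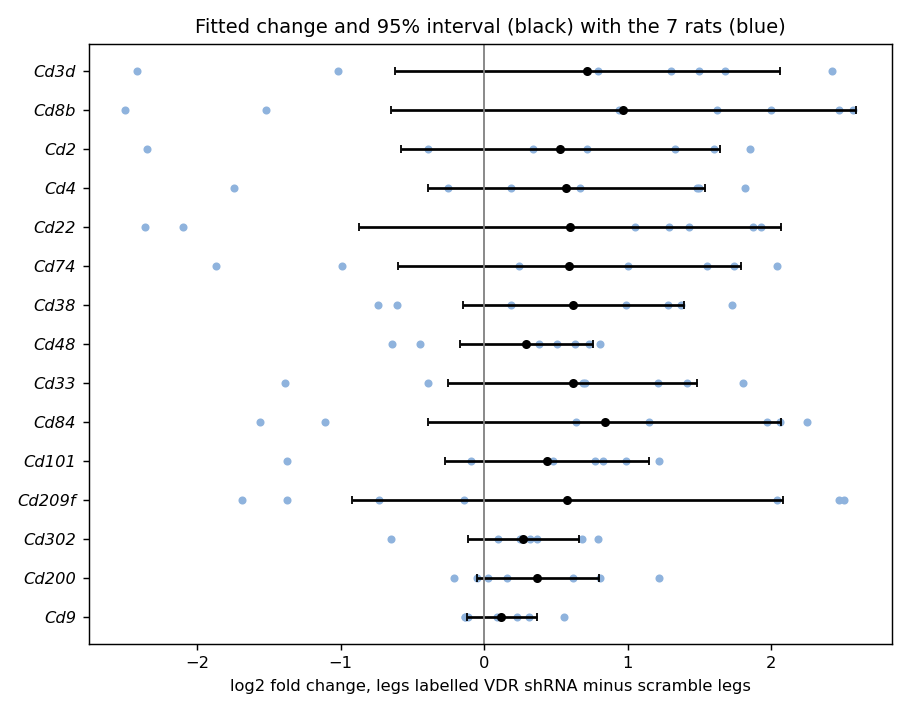
Log2 fold change (x axis) of each CD-numbered gene (y axis) between legs labelled VDR shRNA and scramble legs. Black points and bars are the fitted change and its 95% interval, blue points the 7 rats. All 15 fitted changes lie between 0.12 and 0.97, and all 15 intervals cross the line at 0.

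The rats fell on both sides of 0, and for most members it was the same rats. In 12 of 15 members the shRNA leg was higher than the scramble leg in rats 424, 426, 427, 428 and 429 and lower in rats 423 and 425, an arrangement present in 16.2% of all genes tested and singled out after the values were seen. The exceptions were Cd209f, Cd302 and Cd9. In rats 424 and 429 the shRNA leg was higher for 15 members, in rats 426 and 428 for 14 and in rat 427 for 13. In rat 423 it was higher for 2 (Cd302 and Cd9) and in rat 425 for 0. Over all genes tested, 49.2% to 50.9% were higher in the shRNA leg in each rat. The median log2 ratio over the members was -1.37 in rat 423 and -0.73 in rat 425, and between 0.64 and 1.8 in the other 5. Over all genes it was between -0.01 and 0.01 in each rat. The direction of Vdr did not separate these rats in the same way. Vdr was higher in the shRNA leg of rat 423, where most members were lower. It was also higher in that of rats 426 and 427, where most were higher. The library's normalisation factor did separate them. It was higher in the shRNA leg of rats 424, 426, 427, 428 and 429 and lower in that of rats 423 and 425. In rat 424 it was 1.3543 against 0.8796 in the scramble leg, and in rat 423 0.8521 against 1.0215. The split was thus shared by a factor set over the whole library. Counts of a leg are divided by its total times this factor, so a higher factor by itself lowers every CPM in that leg. The relation of the split to the factor was not tested. At least 5 of 7 rats were higher for 13 members (29.9% of all genes), at least 6 for 1 member, Cd302 (5.11%), and all 7 for none (0.43%). In no member did the shRNA legs lie wholly above the scramble legs (0.0137% of genes). Left out in turn, rats 423 and 425 moved the result most: without rat 423, 8 members and 2624 genes had an unadjusted p under 0.05, and without rat 425, 5 members and 1458 genes, while the adjusted p of no member fell below 0.271 (edgeR).

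**Figure D2:**
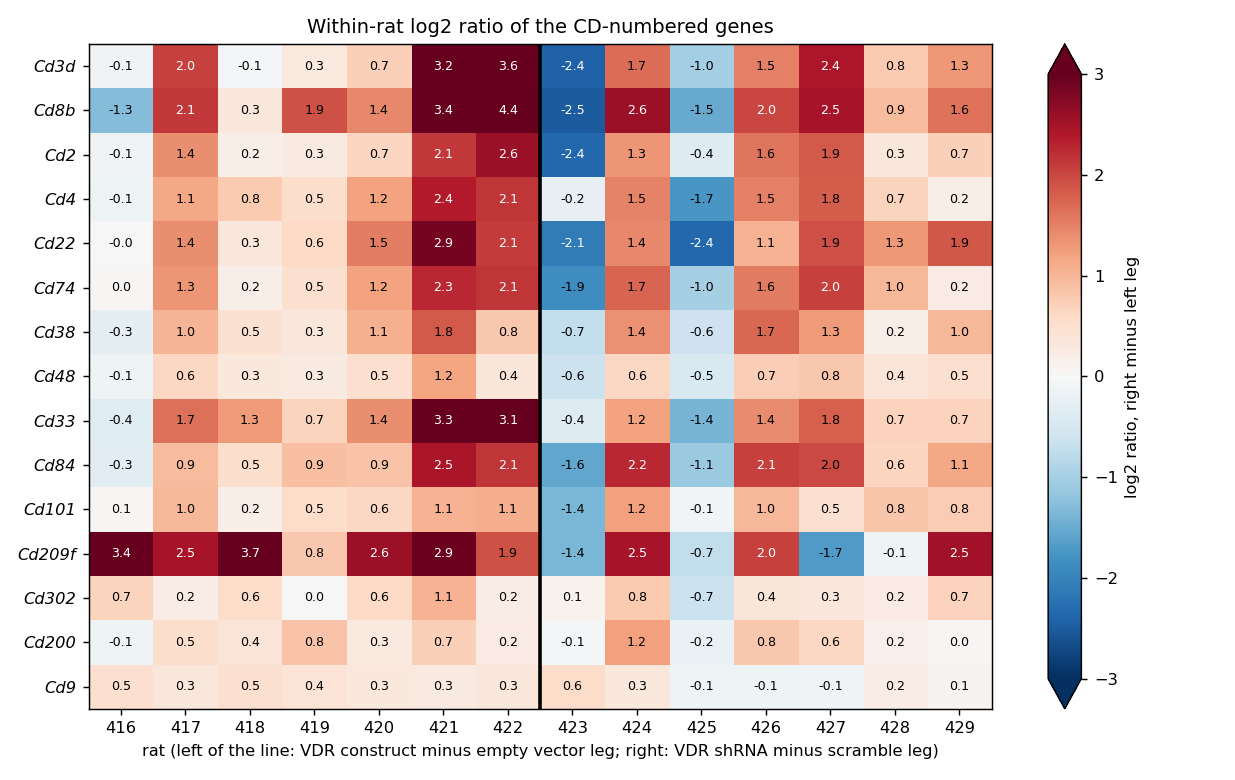
Log2 ratio of right over left leg in each rat (columns) for each CD-numbered gene (rows), as numbers and colour (red higher, blue lower in the right leg, colours saturating at 3). Rats 416 to 422 compare VDR construct with empty vector, rats 423 to 429 VDR shRNA with scramble. The columns of rats 423 and 425 are mostly blue, the other shRNA rats mostly red, and rat 416 is near 0.

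Among T cell genes, Cd3d, a chain of the CD3 complex that transmits the signal of the T cell receptor, was at 0.76 to 7.04 CPM in empty vector legs (median 2.01), 2.45 to 9.14 in construct legs (median 5.84), 1.74 to 8.16 in scramble legs (median 3.96) and 1.52 to 21.2 in legs labelled VDR shRNA (median 7.59). The groups overlapped in both arms, with 2 of 7 construct legs above every empty vector leg and 2 of 7 shRNA legs above every scramble leg. Leg to leg the gene varied 27.9-fold, from 25 counts to 1032. Its fitted shRNA change was 0.72 on the log2 scale (95% interval -0.62 to 2.06). In the selecting contrast its log2 ratio was 1.38 ± 1.55 (SD, n = 7), of which rats 421 and 422 gave the highest values, and it was slightly below 0 in rats 416 and 418.

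Cd8b, which codes for the beta chain of the CD8 co-receptor of cytotoxic T cells, spanned the widest range of the members that had counts in every leg, 67.6-fold. Empty vector legs held 0.304 to 5.49 CPM (median 1.15) and construct legs 2.24 to 7.83 (median 6.6). Scramble legs held 1.8 to 8.79 CPM (median 3.69) and legs labelled VDR shRNA 1.4 to 20.5 (median 12.1). Thus 4 of 7 shRNA legs exceeded every scramble leg, while the shRNA leg of rat 423 lay below all of them. The fitted change of 0.97 (95% interval -0.65 to 2.59) was the largest among the members and also had the widest interval. The construct legs lay above the empty vector legs in 6 rats (log2 ratio 1.75 ± 1.88, SD, n = 7), and below in rat 416 (-1.29).

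Cd2, an adhesion receptor of T and natural killer cells, was at 2.43 to 8.23 CPM in empty vector legs, 4.24 to 14.7 in construct legs, 3.98 to 12.4 in scramble legs and 2.44 to 23.7 in legs labelled VDR shRNA (medians 3.54, 9.55, 6.56 and 11.3). Only the shRNA leg of rat 427 exceeded every scramble leg, and that of rat 423 lay below every one. The fitted shRNA change was 0.53 (95% interval -0.58 to 1.64). Cd4, the co-receptor of helper T cells that rat macrophages also carry, was at 11.9 to 49.2, 34.6 to 84.4, 32 to 137 and 34 to 159 CPM in the same order of groups (medians 30.4, 57.4, 56.2 and 113). The shRNA legs of rats 424, 426 and 428 were above every scramble leg, and those of rats 423, 425 and 429 were at 34 to 41.2 CPM. The fitted change of Cd4 was 0.57 (95% interval -0.39 to 1.54).

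Counts of Cd4 were set beside those of a T cell and a myeloid member within each leg, a choice made after the values were seen. The ratio of Cd4 to Cd3d counts ranged from 4.95 to 23.4 over the 28 legs, 4.73-fold, whereas that of Cd4 to the myeloid Cd33 ranged from 10.6 to 23.4, 2.21-fold. The range was thus narrower against Cd33 than against Cd3d, and this was not tested. The ratio of Cd8b to Cd3d counts, both genes of T cells, ranged from 0.344 to 1.78, or 5.17-fold. The empty vector leg of rat 422, with 10 Cd8b counts, was at 0.4, and the construct leg of rat 416 was at 0.344. Since gene lengths are not given with the counts, these ratios compare legs and not the 2 genes.

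Cd22, an inhibitory lectin of the B cell receptor, was at 0.647 to 3.25 CPM in empty vector legs (median 1.37), 2.07 to 7.12 in construct legs (median 3.82), 0.808 to 9.3 in scramble legs (median 3.18) and 1 to 9.83 in legs labelled VDR shRNA (median 6.62). The scramble leg of rat 425 stood apart at 9.3 CPM, with the next scramble leg at 4.34, and only 1 shRNA leg exceeded it. The fitted change of Cd22 was 0.6 (95% interval -0.87 to 2.07). Its within-rat log2 ratios reached -2.36 in rat 425 and -2.1 in rat 423, and 1.93 in rat 427. Blnk, a linker of B cell receptor signalling and the only other named gene of the 11 on a list of B and plasma cell markers, had a fitted change of 0.62 and was higher in the shRNA leg of 5 rats (adjusted p = 0.803).

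Cd74, the invariant chain that occupies MHC class II molecules until antigen is loaded, had 8878 to 125707 counts per leg. Empty vector legs held 263 to 923 CPM (median 436) and construct legs 612 to 1270 (median 1050). Scramble legs held 556 to 1850 CPM (median 738) and legs labelled VDR shRNA 335 to 2510 (median 1910). In the shRNA arm 4 of 7 shRNA legs were above every scramble leg and that of rat 423 was below every one. The fitted change was 0.59 (95% interval -0.6 to 1.79). Construct legs were above empty vector legs in all 7 rats, although by only 0.04 on the log2 scale in rat 416.

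RT1-Da, which codes for the alpha chain of a rat MHC class II molecule, kept a nearly fixed ratio to Cd74. The ratio of Cd74 to RT1-Da counts lay between 2.14 and 2.85 in all 28 legs, a 1.33-fold range, while Cd74 itself varied 9.55-fold. Even so, the ratio was 2.52 to 2.85 in empty vector legs and 2.14 to 2.5 in legs labelled VDR shRNA, and these ranges did not meet. Those groups are of different rats and arms. Within each arm the ranges overlapped, with 2.32 to 2.75 in construct legs and 2.38 to 2.82 in scramble legs. None of these differences was tested. Both genes are on the published list, the ratio was chosen after the values were seen, and reads may be shared between RT1 genes of similar sequence. All 6 named genes of a 14-gene list for antigen presentation (Cd74, RT1-Da, RT1-Db1, RT1-Ba, RT1-Bb and Ciita, the activator of class II transcription) had fitted shRNA changes above 0, with a median of 0.74 and none past the test.

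**Figure D3:**
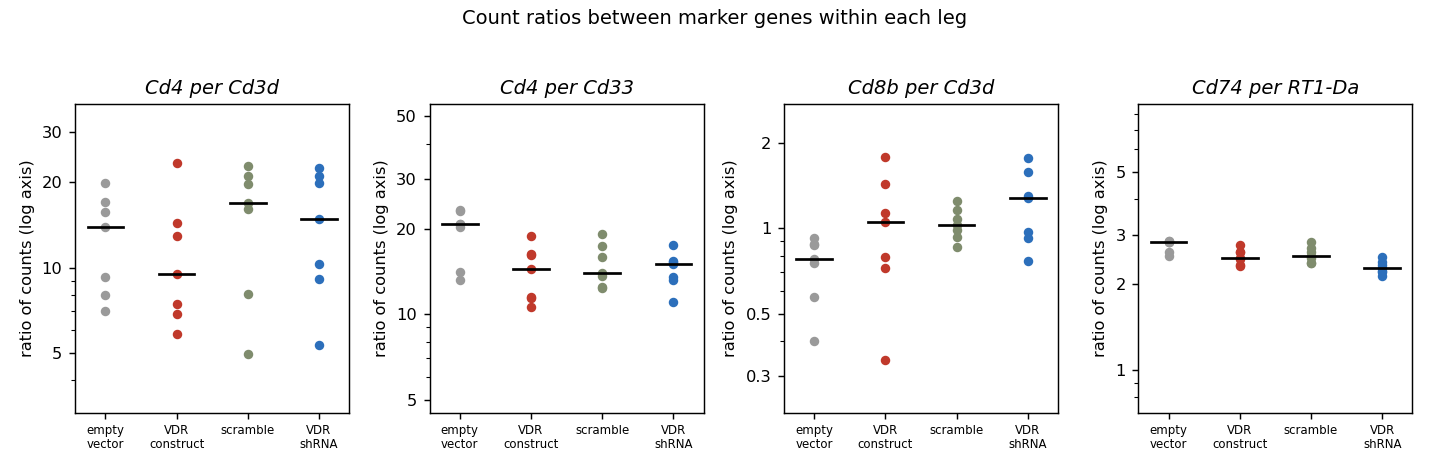
Ratio of the counts of 2 genes within a leg (y axis, log scale, each panel spanning the same fold range) for the 28 legs by group (x axis), with black bars at the group medians. The ratio of Cd74 to RT1-Da spans 1.33-fold over all legs, that of Cd4 to Cd33 2.21-fold, that of Cd4 to Cd3d 4.73-fold and that of Cd8b to Cd3d 5.17-fold.

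Cd38, a surface enzyme that consumes NAD and appears on activated lymphocytes and many other cells, was at 8.5 to 18.3 CPM in empty vector legs (median 14), 12.5 to 30.2 in construct legs (median 21.6), 11.3 to 28.8 in scramble legs (median 16.6) and 12.6 to 40.3 in legs labelled VDR shRNA (median 32.9). The shRNA legs of 4 rats exceeded every scramble leg. Its fitted change was 0.62 (95% interval -0.15 to 1.39). Cd48, a lipid-anchored protein of most leukocytes and the partner that Cd2 binds in rodents, was at 20 to 35.9, 32.9 to 46.3, 26.5 to 49.1 and 31.5 to 65.9 CPM in the same order (medians 29.1, 35.6, 37.7 and 53.5). Here too 4 shRNA legs were above every scramble leg, on a range over all legs of only 3.3-fold against 9.73-fold for Cd2. The fitted change of Cd48 was 0.29 (95% interval -0.17 to 0.76), and its interval excluded a doubling.

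Of the myeloid members, Cd33, a sialic acid-binding inhibitory receptor, was at 0.517 to 3.49 CPM in empty vector legs, 2.13 to 6.39 in construct legs, 1.83 to 7.1 in scramble legs and 2.21 to 12.1 in legs labelled VDR shRNA (medians 1.91, 4.66, 4.55 and 6.41). Cd84, a receptor of the SLAM family that binds itself between leukocytes, was at 1.07 to 5.29, 2.73 to 7.2, 2.66 to 10.2 and 2.75 to 17.3 CPM (medians 1.79, 5.85, 4.19 and 14). For Cd33 the shRNA legs of 3 rats and for Cd84 those of 4 lay above every scramble leg, and both groups overlapped. The fitted shRNA change was 0.62 for Cd33 (95% interval -0.25 to 1.48) and 0.84 for Cd84 (95% interval -0.39 to 2.07). In the selecting contrast the log2 ratio of Cd33 was 1.59 ± 1.31 and that of Cd84 1.07 ± 0.95 (SD, n = 7), with rat 416 below 0 for both.

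Cd101, an inhibitory immunoglobulin-family receptor of myeloid cells and some T cells, was at 0.635 to 1.88 CPM in empty vector, 1.28 to 2.76 in construct, 1.34 to 2.54 in scramble and 0.974 to 3.22 in shRNA legs (medians 1.28, 1.85, 1.65 and 2.86). In 5 of 7 rats its shRNA leg exceeded every scramble leg, more than for any other member, and the shRNA leg of rat 423 was below every one. The fitted change was 0.44 (95% interval -0.27 to 1.15), and construct legs were above empty vector legs in all 7 rats, by 0.06 to 1.09 on the log2 scale. Cd302, a C-type lectin receptor of monocytes, macrophages and dendritic cells, was at 9.97 to 16.5, 16.1 to 22.4, 13.8 to 27 and 17.2 to 30 CPM in that order (medians 14.4, 20, 17.4 and 22.1). Rat 425 was the only one in which its shRNA leg was lower than the scramble leg (log2 ratio -0.65). The fitted change of Cd302 was 0.27 (95% interval -0.11 to 0.66).

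Cd209f, one of several closely related lectin genes, rested on few reads, and its counts are uncertain where reads fit more than 1 gene of the family. The summed counts were 7 in empty vector legs, of which 3 legs had 0, 65 in construct legs, 63 in scramble legs and 154 in legs labelled VDR shRNA. Most of the shRNA sum, 76 and 40 counts, came from rats 426 and 424. It passed the filter on low counts in 4 scramble and 4 shRNA legs, and in the construct arm in 0 empty vector and 2 construct legs, so it was tested in the shRNA arm and left out of the 14526 genes of the construct arm. Its fitted shRNA change was 0.58 (95% interval -0.92 to 2.08), yet the shRNA leg was higher in only 3 of 7 rats and the median within-rat ratio was -0.14.

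Cd200, a ligand on endothelial, nerve and lymphoid cells that restrains myeloid cells through Cd200r1, was at 15 to 23.6 CPM in empty vector legs (median 19.1), 21.4 to 28.4 in construct legs (median 24.9), 18.9 to 28.2 in scramble legs (median 21.9) and 19.3 to 49.6 in legs labelled VDR shRNA (median 31.2). Of the shRNA legs 4 were above every scramble leg, with rats 424 and 426 at 49.6 and 45.3 CPM, and the other 3 were at 19.3 to 24.4. The fitted change was 0.37 (95% interval -0.05 to 0.8), with the lowest unadjusted p among the members. Cd200r1, the receptor, was at 1.38 to 5.51 CPM in scramble legs and 0.946 to 9.51 in shRNA legs, with a fitted change of 0.65. Fcgr2b, an inhibitory Fc receptor and the other named gene on a list of 21 partners of the members, had a fitted change of 0.68, and neither passed the test (adjusted p = 0.803 for both).

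Cd9, a tetraspanin found on many cell types that takes part in adhesion and membrane fusion, varied the least of all members, 2.04-fold over the 28 legs. Empty vector legs held 17.8 to 24 CPM (median 22.7) and construct legs 25.2 to 30.5 (median 28.3). It was the only member of the 14 tested in that arm whose construct legs all lay above the empty vector legs. Scramble legs at 19 to 34.2 CPM (median 25.3) and shRNA legs at 23.2 to 36.2 (median 28) overlapped almost fully. The fitted shRNA change of Cd9 was 0.12 (95% interval -0.12 to 0.37), the smallest and most closely bounded among the members, and its shRNA leg was higher in 4 of 7 rats, among them rat 423.

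**Figure D4:**
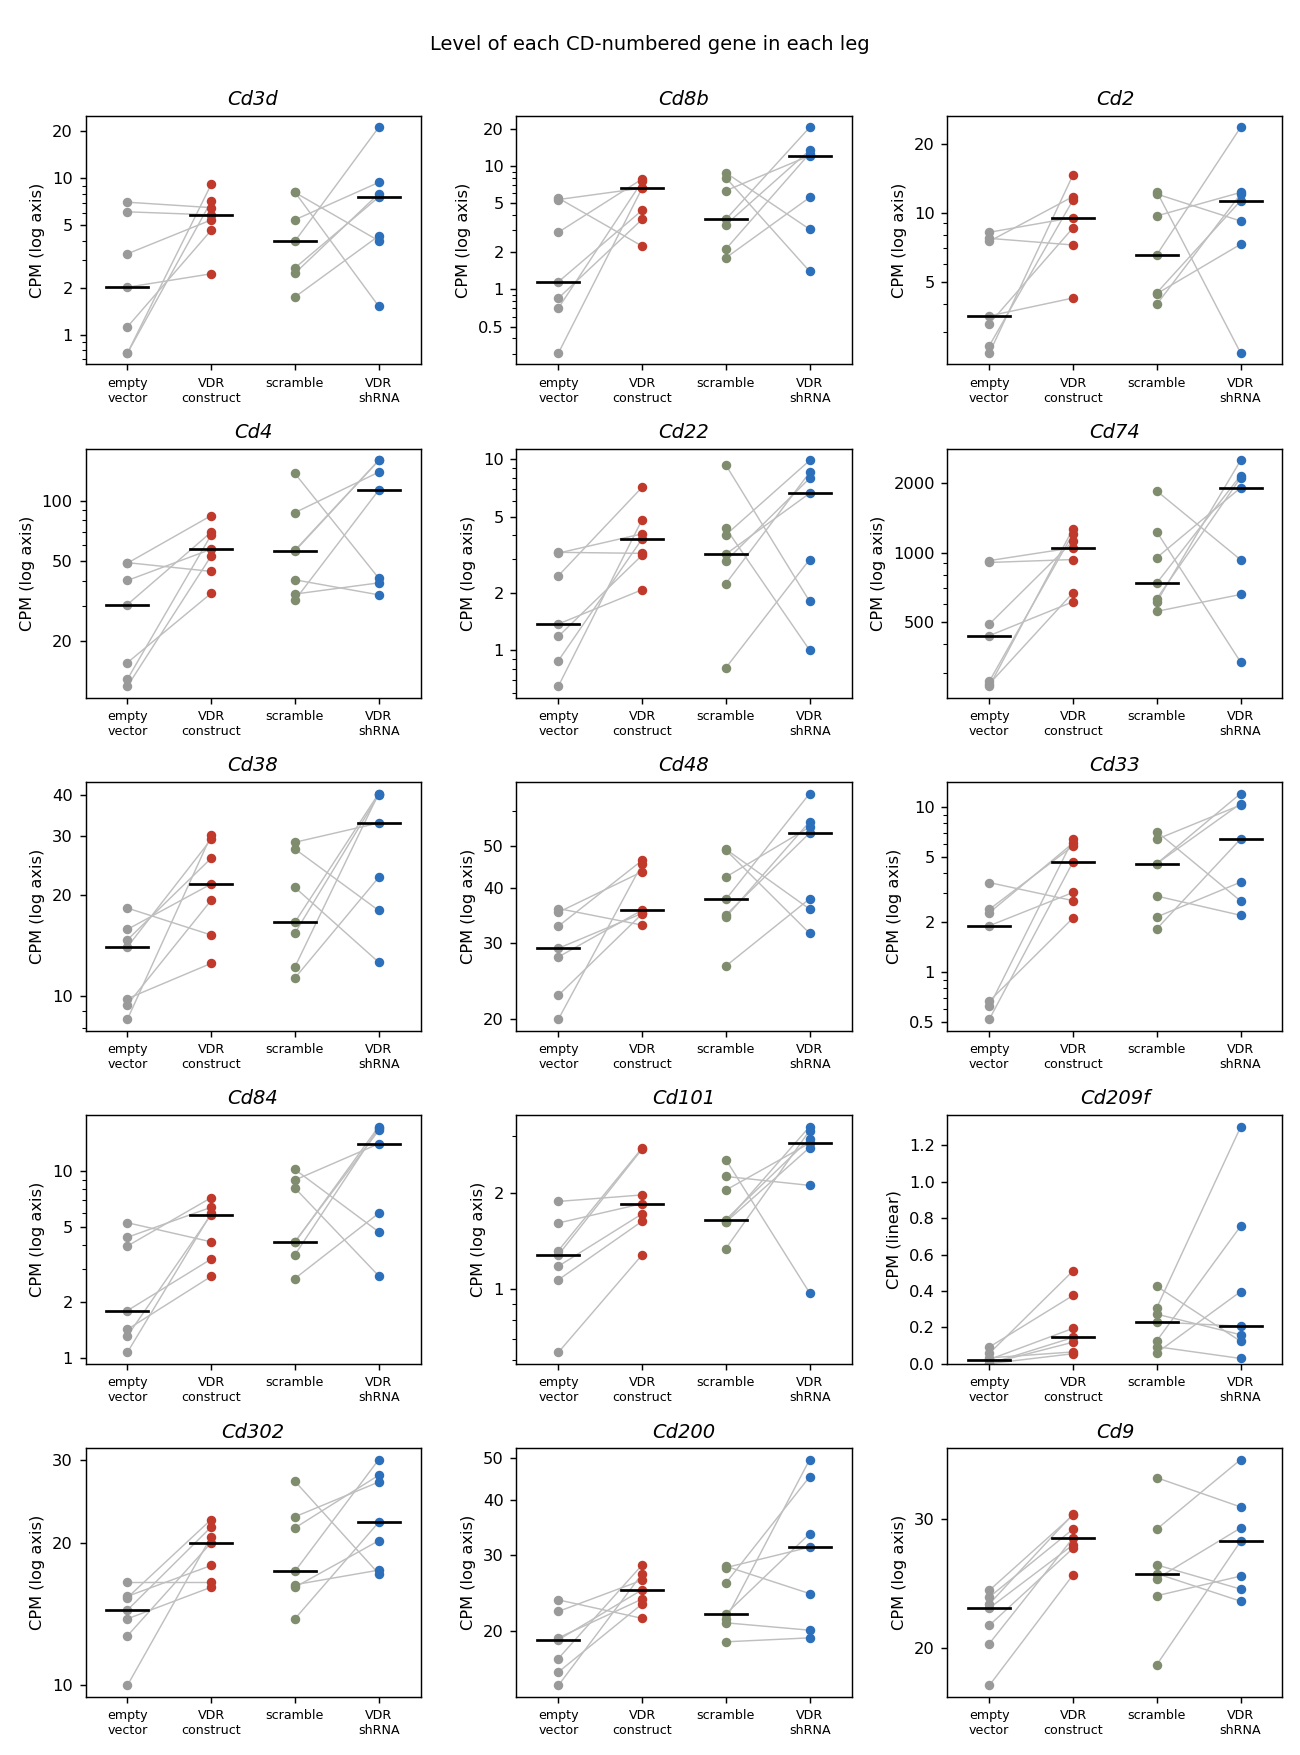
Level of each CD-numbered gene in CPM (y axis, log scale except for Cd209f, which has legs at 0) in the 28 legs by group (x axis). Points are legs, grey lines join the legs of 1 rat and black bars are group medians. Empty vector legs are lowest on average in every panel, but the members were selected by a contrast with these legs, so nothing is read from this order. Only for Cd9 do construct legs clear all empty vector legs.

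Across the 4 groups, the mean log2 level was lowest in empty vector legs for all 15 members. It was highest in legs labelled VDR shRNA for 14 members and in construct legs for Cd9. The share of all genes with such an order is not given here. The members were selected by a contrast with the empty vector legs, so nothing is read from these counts. The empty vector legs were below the scramble legs by a median of 0.92 on the log2 scale over the members (-0.92), from -0.24 for Cd9 to -1.48 for Cd33 among members with counts in every leg, where the median over all genes was 0. Both are control legs of different rats, and control plasmid, rat and any batch of surgery or sequencing cannot be told apart. The construct legs in turn lay close to the scramble legs, from -0.17 for Cd209f to 0.46 for Cd3d. These differences are a description, since the empty vector legs took part in selecting the members. The level in a low control leg enters every ratio to it, and within empty vector legs rat 416 had the highest value for 10 members while rats 421 and 422 had the lowest for 6 and 5.

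In the selecting contrast the construct leg was higher than the empty vector leg in all 7 rats for Cd74, Cd101 and Cd9, 3 of the 14 members tested there, where 5.03% of all genes were, and construct legs lay wholly above empty vector legs for 1, Cd9 (0.503%). The members were chosen by this contrast, so nothing is read from these counts. The median over members of the mean log2 ratio was 1.07, with an SD over rats of 0.89, and 1.15 without rat 419, whose Vdr was not raised. By rat the median ratio of the members was -0.11 in rat 416, 0.38 in rat 418, 0.52 in rat 419, 0.86 in rat 420, 1.15 in rat 417, 2.1 in rat 422 and 2.27 in rat 421. Over all genes the median was between -0.05 and 0.02 in each of these rats. The highest ratios belonged to the rats with the lowest empty vector legs. Rat 416, with Vdr at 1990 CPM in its construct leg, had 5 of 15 members higher there, against 49.3% of all genes. The normalisation factor was lower in its construct leg than in its empty vector leg (0.8695 against 1.1576). In every other rat of this arm the factor was higher in the construct leg, which by itself lowers the CPM there. The factor's relation to the ratios was not tested.

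Lists of markers of other cell types were read in the shRNA comparison through the same published names, so most of their genes carry no name here, and no listed gene passed the test. Of 15 macrophage and monocyte genes 9 were named (Csf1r and Mrc1 among them), all with changes above 0 and a median of 0.61. Their summed level was 491 to 1910 CPM in scramble legs and 425 to 2640 in shRNA legs. The 4 named of 16 T cell genes, Cd3d, Cd2, Cd8b and Lat, an adaptor of T cell receptor signalling, had a median of 0.72. Their sum was 10.2 to 38.7 CPM in scramble and 7.48 to 86.2 in shRNA legs. Laptm5, the only named gene of 7 for leukocytes of all kinds, had a value of 0.59, and Cpa3 and Ccr3, 2 of 8 for mast cells and granulocytes, had 0.37 and 0.67. Of 8 stromal genes 6 were named, with a median of 0.1 and 4 above 0, among them Pdgfra at 0.21 and Pdgfrb at 0.04. Col1a1 at -0.12 and Col3a1 at -0.04 were below 0. Vcam1, the 1 named of 6 satellite cell genes, had 0.48. None of the genes listed for natural killer cells, endothelium, muscle fibres or red cells was named, so the muscle identity of the samples was not checked from markers. All named leukocyte markers of these lists thus had values above 0, but Cd3d, Cd2, Cd8b, Cd22, Cd33 and Cd74 among them are members. All are also on the published list, of whose other tested genes 65.3% were above 0, taken without regard to their direction in the selecting contrast. The part of these markers in the members' levels was not tested. Cd14 and Cd163, left out of the members above and counted among the 9 macrophage and monocyte genes, had fitted changes of 0.45 and 0.59.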

How the data were processed

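RNA was prepared with a TruSeq kit and sequenced as paired reads of 75 bases on an Illumina HiSeq. The authors trimmed adaptors with trimmomatic, dropped unpaired reads, aligned and counted with Rsubread, and deposited raw counts per gene for each leg (rat genome 6.0, Ensembl release 89), without normalisation. Whether strand was used in counting is not given in the sources used here. The submitters' notes name bcl2fastq 2.17.1.14, FastQC 0.11.5 and edgeR 3.18.1.

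The members and all marker lists were chosen with earlier results of these data known. Symbols came from the published list only. The study's own p-values and fold changes in that list were not used. All members are named, Vdr as the targeted gene, and from each marker list the first 2 measured genes, since none passed the test, with further genes of a list named after their values were seen.

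Legs were grouped by the VDR status label and paired by the animal label. In each arm of 14 legs, genes were kept that passed, in at least 7 legs, the CPM worth 10 counts in a library of median size (0.251 in the shRNA arm, 0.239 in the construct arm). Legs labelled VDR shRNA were compared with scramble legs by the quasi-likelihood test of edgeR 4.0.16 (R 4.3.3), normalised by TMM (trimmed mean of M-values), with the rat as a block and Benjamini-Hochberg adjustment over 14652 genes. Levels are CPM with TMM factors over all 28 legs, and log2 ratios used a prior count of 0.5. The study used the likelihood ratio test, which was kept as an alternative. When the scripts were tested on simulated data, it made more false calls than the quasi-likelihood test (19% against 5.8% of calls). It also recovered more of the simulated log2 changes of 1 (65% against 40%). DESeq2 1.42.0, RLE factors, other filters, no block, all 28 legs in 1 fit and leaving out each rat were the other alternatives. No libraries were identical (lowest chi-square per degree of freedom within a group 29.7). For legs of 1 rat by the animal label, deviations from the group means had a mean correlation of -0.107 in the shRNA arm and 0.248 in the construct arm. For legs of different rats it was 0.019 and -0.042. By this measure, legs of 1 rat in the shRNA arm were no more alike than legs of different rats.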

Additional observations from a re-analysis of the deposited data

Results flagged for a closer look

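In 90 sets of 7 values looked at (each member's level in each group and its within-rat ratios in each arm), a highest or lowest value stood apart from the rest in 2 by Dixon's 95% criterion for 7 values. Levels were taken as CPM and not on the log2 scale. Chance alone flags about 1 in 20 such sets if the values are normally distributed.

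Cd3d was at 21.2 CPM in the shRNA leg of rat 427, where the next of the 7 shRNA legs was at 9.42 CPM, a gap of 0.599 of the whole range. Cd22 was at 9.3 CPM in the scramble leg of rat 425, where the next scramble leg was at 4.34 CPM, a gap of 0.584 of the range. On the log2 scale both stood less far apart. Cd3d ran from 0.614 to 4.408 over the shRNA legs, with the second highest at 3.238. Cd22 ran from -0.286 to 3.219 over the scramble legs, with the second highest at 2.12.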

How the results depend on the processing

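No member and no gene passed the adjusted threshold in the shRNA comparison under any alternative run: the likelihood ratio test, DESeq2, RLE normalisation, no filter on low counts, a filter passed in at least 2 legs, all 28 legs in 1 fit, no replicate block, and leaving out each rat (0 in each). All 208 member values under these alternatives kept a positive sign, with adjusted p from 0.271 to 0.997, and Cd209f could not be fitted under 2 of them. Without the replicate block, that is without pairing the legs by rat, 1 member and 647 genes had an unadjusted p under 0.05, against 0 and 395 with it, and the lowest adjusted p of a member was 0.681. The fit of all 28 legs gave 1 member and 1043 genes. Leaving out 1 rat moved the unadjusted counts most. Without rat 423 there were 8 members and 2624 genes (lowest member adjusted p 0.271), and without rat 425 there were 5 members and 1458 genes (0.442). Without any other rat there were 0 members and 162 to 295 genes.

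The median member ratio of construct to empty vector legs was 1.08 with RLE factors, 1.06 with a prior count of 2, and 0.84 to 1.27 when leaving out each rat. The median difference of empty vector from scramble legs was -0.92 with RLE factors, -0.9 with a prior count of 2, and -1.12 to -0.68 when leaving out each rat of either group. With 7 pairs, the spread between rats limits what can be detected, and Cd209f is limited by its counts as well.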

Other observations

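Over the 28 legs the fold range from lowest to highest level differed widely between the members with counts in every leg. It was 23.4 for Cd33, 16.2 for Cd84, 15.2 for Cd22 and 13.3 for Cd4, and 5.07 for Cd101, 4.74 for Cd38, 3.3 for Cd200 and 3.01 for Cd302. Among scramble legs rat 425 had the highest level of 9 members and rat 429 the lowest of 10. Among legs labelled VDR shRNA rat 423 had the lowest level of 12 members, and rats 426 and 427 the highest of 6 and 5.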
